A study of Mus musculus with 3 samples.

Results

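The Pim kinases and the Myc network were examined as a set of 10 genes, taken by gene symbol from the 56748 genes of the count table. They are the kinase genes Pim1, Pim2 and Pim3, the activator genes Myc, Mycn and Mycl, their shared partner Max, and the repressor genes Mxd1, Mxd4 and Mxi1. Expression was measured by RNAseq in adult cardiomyocytes (ACMs), heart muscle cells isolated from wild-type mice of 8 to 10 weeks and kept in culture. The data are 3 libraries, 1 from ACMs given vehicle (0.1% BSA), 1 from ACMs given mouse oncostatin M (OSM) at 10 ng/mL and 1 from ACMs given human IL-6 at 10 ng/mL, each for 16 h. All 3 treatments, vehicle included, were given in serum-free medium with 10 mM BDM, an inhibitor of contraction, and with insulin, transferrin, selenium and lipids. The study's methods describe mice of both sexes, RNA samples were pooled before sequencing, and the number of animals in a pool is not given in the sources used here. With 1 library per condition there were no replicates, so each difference below compares libraries and has no replicate check.

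The Pim kinases are serine/threonine kinases that are active as soon as they are made, so that the amount of each protein is set largely by transcription and by the turnover of its mRNA and protein. They phosphorylate proteins of cell survival, translation and the cell cycle, and Pim1 is a textbook target of STAT3, the transcription factor that OSM and IL-6 activate through gp130 and JAK1. MYC binds DNA only as a dimer with MAX, at the E-box sequence, and activates genes of ribosome production, nucleotide synthesis and metabolism, while dimers of MAX with MXD1, MXD4 or MXI1 sit on the same sequence and bring in the SIN3 corepressor with its histone deacetylases. In heart muscle, Myc is known as an early gene of hypertrophic growth and Pim1 as a survival kinase.

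Total counts were 24939980 with vehicle, 26362446 with IL-6 and 30773001 with OSM, and mitochondrial genes took between 13.6% and 17.4% of them. The cells carried the defining transcripts of cardiomyocytes, with 10 markers that summed to between 10104 and 12483 fpkm (fragments per kilobase of gene length, scaled to the depth of the library). Of these, Ryr2 (22606 counts with vehicle and 9264 with OSM) and Ttn (18901 and 7191) were lower with OSM by over 2-fold after scaling, and neither was with the trend on gene length described below removed. Markers of other cells were low. The lymphocyte list summed to between 0.0602 and 0.186 fpkm, the fibroblast list to 3.67 to 4.17 and the endothelial list to 8.43 to 9.98. Of the 10 lymphocyte markers, 7 were at 0 counts with vehicle, 8 with IL-6 and 7 with OSM. The smooth muscle and pericyte list summed to 33.6 fpkm with vehicle, 36.4 with IL-6 and 24.1 with OSM. Of this, Abcc9 alone had 19.9, 22.7 and 8.01 fpkm in the same order, and Acta2 had 12.2, 12.1 and 14.3. Socs3, a feedback inhibitor of cytokine signaling that STAT3 induces, had 670 counts with vehicle, 646 with IL-6 and 18194 with OSM. Il6ra, which encodes the receptor subunit specific to IL-6, had 24, 8 and 14 counts in the same order, and Osmr, which encodes that of OSM, had 1023, 1199 and 2929.

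Per base of gene length, Myc was the most abundant of the 10 in vehicle-treated ACMs at 30.2 fpkm (95% counting interval 28.9 to 31.6), a higher level than 92.5% of the genes with counts. Pim3 followed with 21.7 fpkm (20.6 to 22.9) and Max with 10.7 (10.1 to 11.4). Each of these steps in the order was larger than counting error, with Myc 1.39 times (1.30 to 1.49) the level of Pim3 and Pim3 2.03 times (1.86 to 2.2) that of Max. Mxi1 at 5.92 fpkm, Pim1 at 5.34 and Mxd4 at 5.02 formed the middle of the order, where neighbours did not differ beyond counting error. Pim2 had 2.83 fpkm and Mxd1 1.65. Intervals here and below cover counting error only, since each condition has 1 library. Sequenced PCR fragments without molecular identifiers are not independent molecules, so the intervals may be too narrow even for counting error.

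Mycn and Mycl, the family members known from embryonic tissue and tumors, were almost without counts. Mycn had 0 counts with vehicle, 2 with IL-6 and 0 with OSM, and Mycl had 1, 0 and 0. A count of 0 allows up to 3 counts, or 0.120 CPM (the count over the library total, scaled as in fpkm but not by length) in the vehicle library, 0.114 in the IL-6 library and 0.0975 in the OSM library. Both genes were under the minimum of 10 counts over a pair of libraries and were not compared, so that 8 of the 10 genes enter the comparisons.

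**Figure D1:**
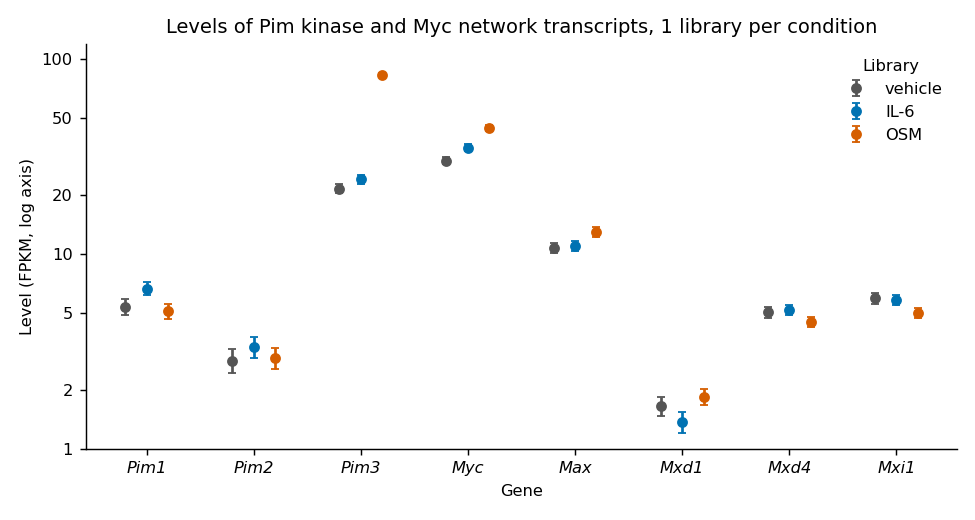
Level in fpkm (log axis) of the 8 genes with enough counts in the vehicle, IL-6 and OSM libraries, with bars for the 95% counting interval. Pim3 stood at 21.7, 24.2 and 83.3 fpkm in vehicle, IL-6 and OSM, and Myc at 30.2, 35.2 and 44.4, while the points of each of the other genes lay closer together.

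To ask which transcripts OSM raises, the study compared OSM-treated with vehicle-treated ACMs. Among the Pim kinases this difference lay in Pim3. Pim3 (ENSMUSG00000035828, plus strand of chromosome 15, 88746389 to 88749929 in GRCm39) had 1333 counts with vehicle, 1593 with IL-6 and 6039 with OSM. These counts correspond to 21.7, 24.2 and 83.3 fpkm, so that the OSM library stood far above the others, which lay close together. The log2 fold change of TMM-scaled counts (counts scaled by edgeR's trimmed mean of M-values) was 1.94 (95% counting interval 1.85 to 2.02), or 3.83-fold, and ranked 642 among 15537 compared genes. Genes were called where the entire counting interval exceeded a 2-fold difference, and Pim3 rose by this rule. It was the only one of the 8 genes to do so, beside 3.74% of all compared genes called higher, and 0 of the 8 were called lower, beside 5.43% of all. Where replicates were assumed to vary biologically with a coefficient of 0.4 (exact test of edgeR), Pim3 was no longer called. In RNA from a bulk culture, more Pim3 RNA per cell and more cells that express it cannot be told apart. The summed level of the macrophage marker list also stood higher with OSM, at 39.9 fpkm beside 13.8 with vehicle and 14.4 with IL-6. Cd68 carried most of it, with 1419 counts beside 382 and 448. The markers C1qa, C1qb, C1qc and Ptprc had 0 counts in all 3 libraries. Csf1r had 187 counts with vehicle, 166 with IL-6 and 209 with OSM, and Mrc1 had 2, 14 and 8. Lyz2 had 13, 4 and 31 in the same order and was called higher with OSM against IL-6. Adgre1 had 8 counts with vehicle and 6 with OSM.

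Pim1 (ENSMUSG00000024014, plus strand of chromosome 17, 29709727 to 29715086) had 454 counts with vehicle, 606 with IL-6 and 510 with OSM, or 5.34, 6.65 and 5.08 fpkm. Between OSM and vehicle its log2 fold change was -0.07 (-0.26 to 0.11), an interval from 0.836-fold to 1.08-fold. Pim2 (ENSMUSG00000031155, plus strand of the X chromosome, 7744501 to 7749671) had 200, 252 and 243 counts, or 2.83, 3.33 and 2.91 fpkm, and the OSM to vehicle log2 fold change was 0.04 (-0.24 to 0.32). The kinases were also compared with each other directly. In this form the ratio of OSM to vehicle counts of 1 gene is divided by that of another, which needs no scaling of the libraries. The ratio for Pim1 was 0.248 times (0.215 to 0.286) that for Pim3 and the ratio for Pim2 was 0.268 times (0.219 to 0.328) that for Pim3. Pim1 and Pim2 did not differ beyond counting error, at 0.925 times (0.733 to 1.17). Over all 28 pairs of the 8 genes, 18 had an interval that left out equal ratios, among them all 7 pairs with Pim3.

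Sequences near the start sites are shown because Pim3 and Pim1 differed in response although Pim1 is the kinase usually named as the STAT3 target. RefSeq promoters on the GRCm38.p6 build, 250 bases before to 50 after a start site, were matched by symbol for 9 of the 10 genes (all but Myc), which gave 12 promoters. They were searched on both strands for the STAT motif TTCNNNGAA and for the E-box CACGTG, each of which reads the same on either strand. The STAT motif was in 8.30% of all 32851 RefSeq promoters and in 0 of these 12, and the E-box was in 7.15% of all and in 3 of the 12. A window without these letters says nothing on sites elsewhere. The Pim3 promoter at chr15:88861944-88862243 (plus strand) is 69% G and C with 40 CpG dinucleotides, and the first of the Pim1 promoters in the table, at chr17:29490535-29490834 (plus strand), is 81.3% G and C with 42. The median G and C content of all promoters was 52.7%. Bases are in lower case throughout, since no motif was found in either.
Pim3 promoter: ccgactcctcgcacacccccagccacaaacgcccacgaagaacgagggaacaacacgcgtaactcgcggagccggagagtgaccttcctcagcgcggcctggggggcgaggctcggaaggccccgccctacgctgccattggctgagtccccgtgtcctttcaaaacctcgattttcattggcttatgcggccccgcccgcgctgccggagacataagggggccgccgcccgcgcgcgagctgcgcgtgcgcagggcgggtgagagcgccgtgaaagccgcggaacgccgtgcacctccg
Pim1 promoter: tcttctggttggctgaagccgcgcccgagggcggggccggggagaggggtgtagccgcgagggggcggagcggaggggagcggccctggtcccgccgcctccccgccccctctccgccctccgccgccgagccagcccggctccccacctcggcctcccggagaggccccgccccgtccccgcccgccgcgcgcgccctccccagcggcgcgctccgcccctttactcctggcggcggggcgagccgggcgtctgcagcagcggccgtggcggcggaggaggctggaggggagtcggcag

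Myc was higher with OSM as well, by less than 2-fold. Myc (ENSMUSG00000022346, plus strand of chromosome 15, 61857240 to 61862223) had 2078 counts with vehicle, 2590 with IL-6 and 3602 with OSM, or 30.2, 35.2 and 44.4 fpkm. The 3 levels were ordered vehicle, IL-6, OSM, and their counting intervals do not overlap. Its log2 fold change between OSM and vehicle was 0.55 (0.47 to 0.63), or 1.47-fold, beyond counting error and short of the 2-fold rule. The OSM to vehicle ratio of Pim3 was 2.61 times (2.41 to 2.83) that of Myc. Pim3 stood at 1.88 times (1.80 to 1.96) the level of Myc per base of length in the OSM library, whereas Myc stood above Pim3 in the vehicle and IL-6 libraries.

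Max (ENSMUSG00000059436, minus strand of chromosome 12, 76984043 to 77008975), the obligate partner of MYC, had 975 counts with vehicle, 1077 with IL-6 and 1394 with OSM, or 10.7, 11.0 and 13.0 fpkm. Against vehicle, OSM gave a log2 fold change of 0.27 (0.16 to 0.39), again beyond counting error and within 2-fold. The ratio of OSM to vehicle counts was 1.21 times (1.10 to 1.34) as large for Myc as for Max.

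The repressors had lower values than Myc, an order that did not hold for Mxd1 once the trend on gene length described below was removed. Mxi1 (ENSMUSG00000025025, plus strand of chromosome 19, 53298949 to 53364241) had 1021 counts with vehicle, 1071 with IL-6 and 1018 with OSM, and Mxd4 (ENSMUSG00000037235, minus strand of chromosome 5, 34331227 to 34345064) had 1077, 1186 and 1136. Scaled to the larger OSM library, their log2 fold changes from vehicle were -0.25 (-0.37 to -0.12) for Mxi1 and -0.16 (-0.29 to -0.04) for Mxd4. Mxd1 (ENSMUSG00000001156, minus strand of chromosome 6, 86624024 to 86646143), the repressor known to be made as cells differentiate, had 296, 263 and 390 counts, and its OSM to vehicle log2 fold change was 0.16 (-0.07 to 0.38). Mxd1 thus had the highest of the 3 values, with a ratio of OSM to vehicle counts 1.25 times (1.05 to 1.49) that of Mxd4 and 1.32 times (1.11 to 1.58) that of Mxi1. The ratio for Max was 1.09 times (0.910 to 1.29) that for Mxd1, which leaves these unseparated. Compared with the repressors, the ratio for Myc was 1.74 times (1.57 to 1.93) that for Mxi1, 1.64 times (1.49 to 1.82) that for Mxd4 and 1.32 times (1.12 to 1.55) that for Mxd1. Counted by whether the whole interval lay on one side of no change, 3 of the 8 genes were higher with OSM (Pim3, Myc and Max), beside 33.4% of all compared genes. By the same count 2 were lower (Mxd4 and Mxi1), beside 33.1% of all, so that such differences were common across the libraries. Without the length trend, Mxd4 stood above no change (0.15, 0.02 to 0.27) and the interval of Mxi1 held no change (-0.20 to 0.06).

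E-boxes were found in 1 promoter each of Max, Mxd4 and Pim1, and they are shown because this is the sequence that MYC, MAX and the repressors bind. The sites are given 5′ to 3′ on the strand of the gene with 12 bases on either side and the E-box in capitals. That of Max began 3 bases before the start site (chr12:76962234-76962263, minus strand), that of Mxd4 219 bases before it (chr5:34187912-34187941, minus strand) and that of Pim1 58 bases before the second start site in the table (chr17:29493015-29493044, plus strand), all on GRCm38.p6. Binding was not analysed here.
Max: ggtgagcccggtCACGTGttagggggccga
Mxd4: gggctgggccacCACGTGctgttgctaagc
Pim1: gtaaacaggaatCACGTGgtctgaaaccag

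**Figure D2:**
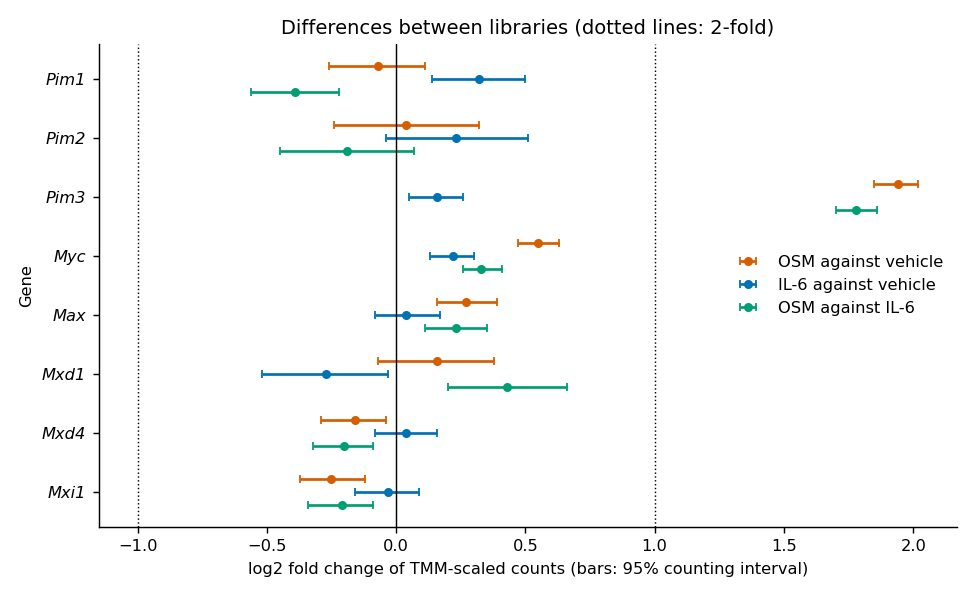
Log2 fold change of TMM-scaled counts for 8 genes in the 3 comparisons of libraries, with bars for the 95% counting interval and dotted lines at 2-fold. Pim3 lay past the 2-fold line against vehicle (1.94) and against IL-6 (1.78), and every other point lay between the lines.

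The set of transcripts with OSM was therefore composed differently. Summed over the 3 Pim kinases, the level was 29.9 fpkm with vehicle, 34.2 with IL-6 and 91.3 with OSM. Pim3 made up 72.7% (95% counting interval 70.8 to 74.5) of this sum with vehicle, 70.8% (69.1 to 72.5) with IL-6 and 91.2% (90.6 to 91.8) with OSM. The share of Pim1 was 17.9%, 19.4% and 5.56% in the same order, and that of Pim2 was 9.47%, 9.73% and 3.19%. Pim3 was thus the main Pim transcript in every library, and its level per base of length was 4.07 times (3.65 to 4.53) that of Pim1 with vehicle and 16.4 times (15.0 to 18.0) with OSM.

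Within the Myc network, the level of Myc was 2.40 times (2.26 to 2.55) the summed level of Mxd1, Mxd4 and Mxi1 with vehicle, 2.85 times (2.70 to 3.02) with IL-6 and 3.92 times (3.72 to 4.12) with OSM. These ratios depend on division by length, and as plain counts Myc had 0.868, 1.03 and 1.42 times the summed repressors. The difference between OSM and vehicle in them includes the length trend, without which Myc and Mxd1 had the same log2 value. The summed repressors themselves differed little, at 12.6 fpkm with vehicle, 12.3 with IL-6 and 11.3 with OSM. Set against Max, they stood at 1.18 times (1.09 to 1.27) its level with vehicle, 1.12 times (1.04 to 1.20) with IL-6 and 0.873 times (0.818 to 0.932) with OSM. This ratio too depends on division by length. As plain counts, the summed repressors had 2394, 2520 and 2544 in the same order, above Max in each library (975, 1077 and 1394). The difference with OSM again includes the length trend. Without it, the OSM to vehicle log2 value of Max was 0.18, and those of Mxd1, Mxd4 and Mxi1 were 0.35, 0.15 and -0.07. All ratios here are of transcripts, and the proteins were not measured in the files used here.

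**Figure D3:**
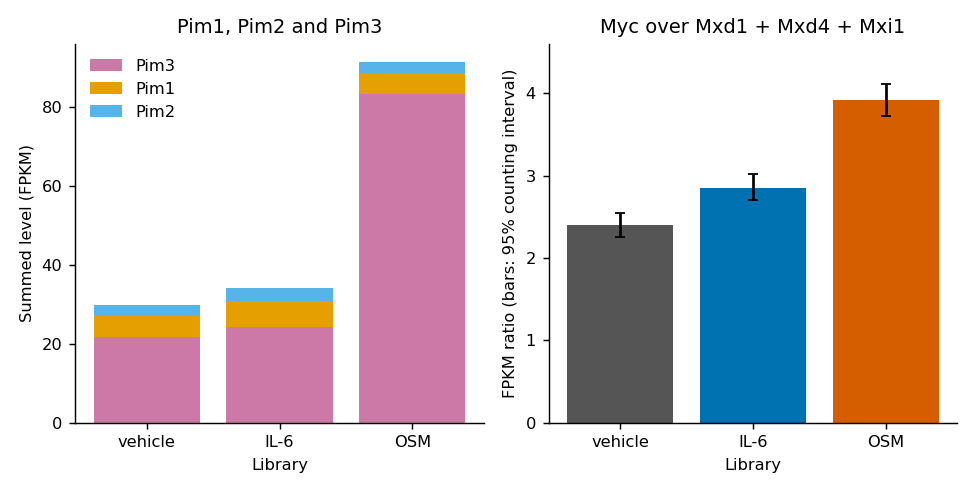
Left, summed level in fpkm of Pim3, Pim1 and Pim2, stacked by gene, in the vehicle, IL-6 and OSM libraries, with sums of 29.9, 34.2 and 91.3. Right, ratio of the Myc level to the summed Mxd1, Mxd4 and Mxi1 levels, with bars for the 95% counting interval, at 2.40, 2.85 and 3.92.

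The IL-6 library, which received another cytokine of the gp130 family, gave small differences from vehicle, and 0 of the 8 genes were called higher or lower. Of all 15472 genes compared, 1.77% were called higher and 1.74% lower. Pim1 had the highest value of the 8, with 606 counts beside 454, or 0.32 (0.14 to 0.50) on the log2 scale. On that scale Myc stood at 0.22 (0.13 to 0.30), Pim3 at 0.16 (0.05 to 0.26) and Pim2 at 0.23 (-0.04 to 0.51). None of the 3 pairs of Pim kinases differed in this comparison beyond counting error, with Pim1 at 1.12 times (0.967 to 1.29) the ratio of Pim3. The values of Max (0.04), Mxd4 (0.04) and Mxi1 (-0.03) had intervals on both sides of no change, and Mxd1 had 263 counts beside 296, a log2 fold change of -0.27 (-0.52 to -0.03). In all, 3 of 8 intervals lay above no change, beside 19.6% of all genes, and 1 lay below, beside 19.1%.

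Setting OSM against IL-6 in place of vehicle left Pim3 as the called gene, 3.44-fold higher (log2 fold change 1.78, 1.70 to 1.86). This comparison holds the same OSM library as the first, and the IL-6 comparison holds the same vehicle library. Of 15544 compared genes, 4.24% were called higher and 5.42% lower, and of the 8 genes 1 was higher and 0 were lower. Pim1 was below its level with IL-6, at a log2 fold change of -0.39 (-0.56 to -0.22), as were Mxi1 (-0.21, -0.34 to -0.09) and Mxd4 (-0.20, -0.32 to -0.09). Mxd1 had 390 counts with OSM beside 263 with IL-6, a log2 fold change of 0.43 (0.20 to 0.66), Myc one of 0.33 (0.26 to 0.41) and Max one of 0.23 (0.11 to 0.35). Beyond counting error, 4 of 8 genes were higher and 3 lower, where 33.2% of all genes were higher and 33.2% lower.

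Gene length moved with the difference between OSM and the other libraries and touches these values. Over 9445 protein-coding genes that averaged 100 counts or more, gene length and the log2 fold change from vehicle had a Spearman's rho of -0.52, a description across genes, which share the same libraries. The corresponding value was -0.07 for IL-6. The authors' gene lengths were 2427 bases for Pim3 and 2717 for Myc, but 6823 for Mxi1, 7072 for Mxd1 and 8483 for Mxd4. With the loess trend on length removed, the value of Pim3 on the log2 scale was 1.70 (1.61 to 1.79) and that of Myc 0.35 (0.27 to 0.43). The repressors then stood at 0.35 (0.13 to 0.58) for Mxd1, 0.15 (0.02 to 0.27) for Mxd4 and -0.07 (-0.20 to 0.06) for Mxi1, so that the value of Mxd4 switched sign and Mxd1 had the same value as Myc. Pim1 stood at -0.20 (-0.39 to -0.02), Pim2 at -0.15 (-0.43 to 0.13) and Max at 0.18 (0.06 to 0.30). Against IL-6 the values without the trend were 1.56 (1.48 to 1.64) for Pim3, 0.15 (0.07 to 0.22) for Myc and 0.14 (0.03 to 0.26) for Max. Mxd1 then stood above Myc at 0.63 (0.40 to 0.86), Mxd4 had its sign switched at 0.10 (-0.02 to 0.22) and Mxi1 was no longer lower at -0.03 (-0.16 to 0.09). Pim2 was then lower at -0.38 (-0.64 to -0.12), as was Pim1 at -0.51 (-0.68 to -0.33). The cause of the trend was not tested.

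**Figure D4:**
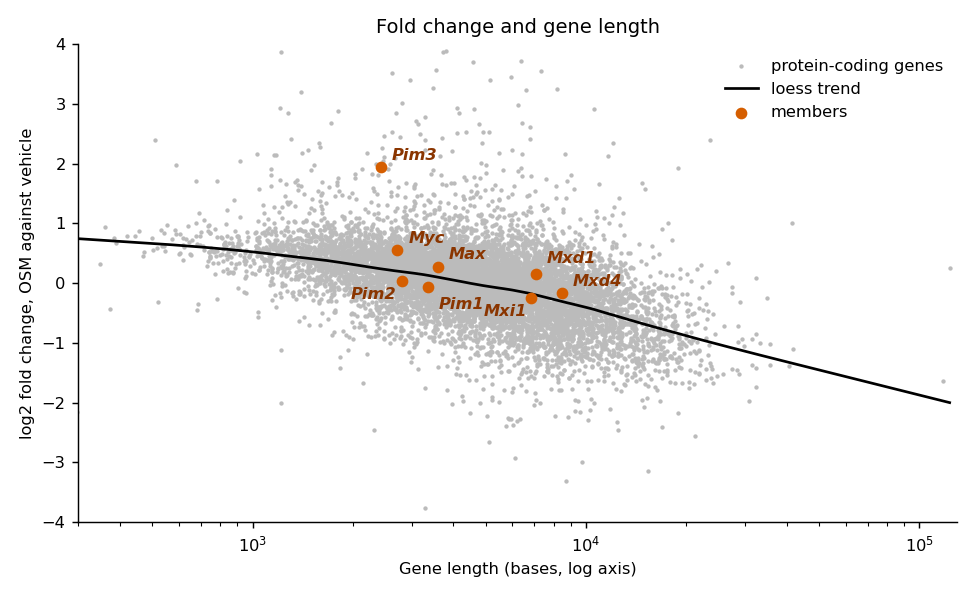
Log2 fold change between OSM and vehicle against gene length (log axis) for protein-coding genes that averaged 100 counts or more (grey), with the loess trend (line) and 8 genes of the set (orange). Axes end at a log2 fold change of 4 in either direction, 24 of the 9445 genes lie outside them, and Pim3 stood 1.70 above the line.

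Genes that act with the network were grouped in lists by textbook knowledge. Of 56 genes known to be activated by MYC, 55 had enough counts, with a median log2 fold change with OSM of 0.30 (0.28 with the length trend removed), where the median of all compared genes was 0.00. Odc1 and Slc2a1 rose and 0 genes fell, so that 3.64% were called higher, close to the 3.74% of all genes. Odc1, which encodes the first enzyme of polyamine synthesis, had 8521 counts with vehicle, 9522 with IL-6 and 25660 with OSM, which is 1.35 (1.31 to 1.38) on the log2 scale between OSM and vehicle. Slc2a1, which encodes the glucose transporter GLUT1, had 2487, 2709 and 8125 counts (1.47, 1.40 to 1.53). Positive values were found for 41 of the 55. Above no change lay 39 of the 55 intervals (70.9%), beside 33.4% of all genes, and below it 10 (18.2%), beside 33.1%. All genes means any with 10 or more counts over the pair, and most listed genes had far more. Intervals are narrower at higher counts, so these shares are not on a like footing, here and in the other counts of this kind. Among genes of ribosome assembly, Rrp9 had a value of 1.04 (0.92 to 1.15), Nop16 of 0.82 (0.73 to 0.92) and Fbl, which encodes the nucleolar methyltransferase fibrillarin, of 0.71 (0.62 to 0.81). These were among the higher of the group, in which Npm1 had 0.19 (0.14 to 0.23), Ncl 0.11 (0.08 to 0.14), Ddx21 -0.01 (-0.06 to 0.04) and Polr1a -0.42 (-0.51 to -0.32). This order changed with the length trend removed. The values were then 0.86 for Rrp9, 0.48 for Nop16, 0.69 for Fbl, -0.02 for Npm1, 0.53 for Ncl, 0.05 for Ddx21 and 0.11 for Polr1a. Wdr12 then stood at 1.11 and Nop58 at 0.91. Srm, which encodes spermidine synthase, had 0.82 (0.71 to 0.93). Of the cell cycle members, Ccnd2 had -1.03 (-1.08 to -0.98) and Mcm7 -0.55 (-0.75 to -0.36), and Cdk4 had 0.49 (0.40 to 0.59). With IL-6 the median of the list was 0.00. Above no change lay 13 intervals (23.6%), beside 19.6% of all genes, and below it 10 (18.2%), beside 19.1%.

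Of 10 genes known to be repressed by MYC, 4 rose (40.0%) and 0 fell with OSM, beside 3.74% and 5.43% of all genes, and the median was 1.12 (0.75 with the length trend removed). The members that rose were Ndrg1, Gadd45g, Gadd45b and Cdkn1c. Ndrg1, a stress-responsive gene, had 242 counts with vehicle, 292 with IL-6 and 2692 with OSM, or 3.23 (3.04 to 3.43) on the log2 scale between OSM and vehicle. Gadd45g and Gadd45b, stress genes of the growth arrest family, had 2.14 (2.08 to 2.2) and 1.37 (1.26 to 1.48). With the length trend removed Gadd45b had 0.98 and was no longer past 2-fold. Cdkn1c, which encodes the cell cycle inhibitor p57, had 6 counts with vehicle, 26 with IL-6 and 48 with OSM (2.76, 1.53 to 4.27). The cell cycle inhibitor gene Cdkn1a had 0.62 (0.58 to 0.66), and Cdkn1b had -0.43 (-0.59 to -0.27). With IL-6 the median was 0.01 and 0 of the 10 were called.

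Genes for known substrates and effectors of the Pim kinases had values in both directions, with a median of 0.03 over 20 compared genes. Socs3 rose and Foxo3 fell, each 5.0% of the list beside 3.74% of all genes higher and 5.43% lower. Foxo3, which encodes a forkhead factor of atrophy and cell death genes, had 2345 counts with vehicle, 2537 with IL-6 and 1219 with OSM, which is -1.19 (-1.29 to -1.08) on the log2 scale between OSM and vehicle, and -0.94, no longer past 2-fold, with the length trend removed. Against IL-6, Socs1 was called higher as well, with 25 counts beside 3. Eif4ebp1, which encodes the translation repressor 4E-BP1, had 0.77 (0.72 to 0.82), and Bad, which encodes a proapoptotic BCL2 family protein, had 0.15 (-0.21 to 0.52).

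Partners and regulators of MYC and MAX held 4 called genes against vehicle, each lower with OSM, beside 5.43% of all genes called lower. Of 5 further Max and Mlx network genes with enough counts, Mga, which encodes a MAX partner, fell from 1735 counts to 709 (-1.53, -1.66 to -1.41, on the log2 scale). Mlx had 0.34 (0.17 to 0.51), or 0.03 with the length trend removed, and Mnt, a MAX-binding repressor, -0.15 (-0.34 to 0.05). Among 11 MYC cofactors, Bptf fell (-1.31, -1.44 to -1.20). Of the 11 intervals, 7 (63.6%) lay above no change, beside 33.4% of all genes, and 4 (36.4%) below, beside 33.1%. Among 7 corepressor genes Ncor1 fell (-1.40, -1.48 to -1.33), while Sin3b had 0.65 (0.56 to 0.75) and Sap30 0.80 (0.50 to 1.10). Without the length trend Sin3b had 0.88 and Sap30 0.32. Among 13 genes of MYC protein turnover, Huwe1, which encodes a ubiquitin ligase, fell (-1.33, -1.39 to -1.27), while Fbxw7, which encodes the ligase subunit that recognises phosphorylated MYC, had 893 counts with vehicle and 822 with OSM. With IL-6, the called gene of these lists was Skp2, a ubiquitin ligase subunit gene, with 18 counts with vehicle and 2 with IL-6. Skp2 was low with OSM as well, at 4 counts (-2.41, -4.43 to -0.81, from vehicle), which was not called. Of 10 genes from the OSM and IL-6 receptors to STAT3, Osmr and Socs3 rose with OSM, beside 3.74% of all genes called higher, and the median was -0.22 (-0.02 with the length trend removed). Stat3 had 7953 counts with vehicle and 14412 with OSM (0.62, 0.58 to 0.66). The genes Mga, Bptf, Ncor1 and Huwe1 are long, at 12811 to 23507 bases, and with the length trend removed their values were -0.83 for Mga, -0.67 for Bptf, -0.83 for Ncor1 and -0.35 for Huwe1, none past 2-fold.

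**Figure D5:**
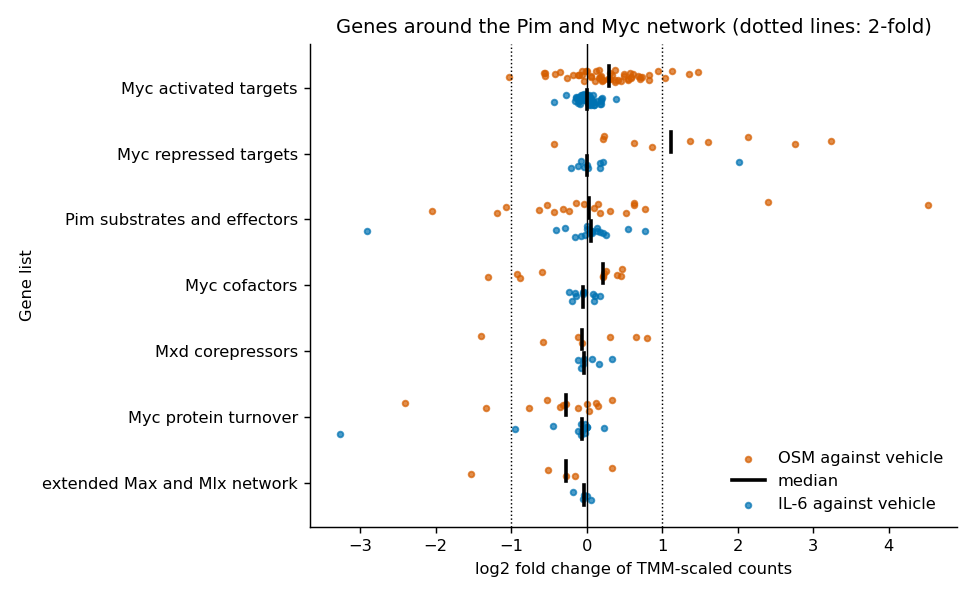
Log2 fold change of each compared gene, except those with 0 counts in 1 library, in 7 lists around the network, for OSM against vehicle and IL-6 against vehicle, with a black bar at the median of the list. With OSM the medians were 0.30 for genes activated by MYC and 1.12 for genes repressed by it, and with IL-6 they were 0.00 and 0.01.

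Genes with the pattern most like each member were sought by the distance between pairs of log2 fold changes, OSM and IL-6 each against vehicle, over 9003 other protein-coding genes with at least 100 counts in all 3 libraries. Around Pim3, 2 genes lay within a distance of 0.1, Ip6k3, an inositol hexakisphosphate kinase gene (1.99 with OSM and 0.14 with IL-6), and Zfp36, which encodes the mRNA decay factor tristetraprolin (1.90 and 0.08). Mid1ip1, Hbegf and Ier3 came next, at distances of 0.14 to 0.16. Around Myc 145 genes lay within 0.1, with C1galt1c1 and Nrbp2 the nearest, and around Max 540. With 3 libraries this likeness rests on 2 numbers per gene. The counting interval of Pim3 with OSM (1.85 to 2.02) spans distances of this size, and Ip6k3 had 197 counts with vehicle. The order of the neighbours of Pim3 is therefore not resolved. Most genes lie near no change, so the number within 0.1 also depends on how far a member lies from it.

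Reads of one gene could have been counted for another where sequences are alike or genes overlap. Stretches of 31 bases of the canonical GENCODE M39 transcripts were searched in transcripts of other genes, and genes that overlap a member were left out of this search. In the genes searched, 0% of the stretches of Pim3, Myc and Mxd1 occurred. None of the 10 genes shared a stretch with another of the set. For Pim1 7.85% were shared, nearly all with Gm17172, which had 0 counts in all 3 libraries, and for Pim2 6.15%, mostly with Gm7645, which had 1, 6 and 0 counts. On the opposite strand, Pim1 overlaps Gm26885 (14, 8 and 3 counts with vehicle, IL-6 and OSM) and Mxi1 overlaps Gm30541 (2, 28 and 11 counts). On the same strand, Gm44292 lies within Mxd1 over 2364 bases and had 0 counts in all 3 libraries. Gm47218 lies within Max over 1319 bases on the same strand and had 4, 6 and 0 counts. Gm59138 (395 bases of Mxi1, same strand) and Gm62594 (88 bases of Myc, opposite strand) were not among the genes counted. Opposite-strand genes also overlap Mxd4, Mycn and Mycl. Whether the counting used the strand is not stated in the sources used here.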

How the data were processed

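Fragments were assigned to genes and the counts were deposited by the authors without normalization, and the fpkm values were deposited by the authors for the same genes, from reads mapped to GRCm39. The submitters' processing notes list fastp, HISAT2 2.2.1, featureCounts 2.0.6 and edgeR 4.0.16. Columns were matched to conditions by library name, and 0 columns of samples were left unused.

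Each pair of libraries was scaled by TMM (edgeR 4.0.16 under R 4.3.3) on the whole table. A gene entered a comparison when its counts in both libraries summed to 10 or more, and its log2 ratio of scaled counts was given a 95% Clopper-Pearson interval, conditional on that sum. Ratios of ratios were given exact conditional intervals (scipy 1.17.1), and shares and ratios of sums were given intervals from the Poisson variance of the counts. No P-value is given, because each condition has 1 library. Total counts of 24939980 to 30773001 set the precision. Calls were tested on simulated data.

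The 10 genes and the gene lists were chosen with earlier results of these data known. The rule for named genes took the 10, the called genes of each list or otherwise up to 5 with the largest absolute values, the 5 nearest patterns to each member and overlapping genes. Other list genes named were chosen after their values were seen. Alternatives were DESeq2 1.42.0 factors, total counts, protein-coding genes for scaling, fpkm, the length trend (loess, span 0.3), filters, a prior count and other calling rules. Of 56748 gene identifiers, 56017 were found in GENCODE M39.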

Additional observations from a re-analysis of the deposited data

How the results depend on the processing

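Over DESeq2 factors, total counts, protein-coding scaling, fpkm and a prior count of 2, the log2 fold change of Pim3 with OSM stayed between 1.88 and 1.94 against vehicle and between 1.70 and 1.78 against IL-6, and it stayed called in both with the length trend removed. The OSM to vehicle value of Pim2, within counting error of 0, changed sign with total counts (-0.02) and with the length trend removed (-0.15), and that of Mxd4 with the length trend removed (0.15). Under an assumed BCV, the biological coefficient of variation, of 0.2, the exact test of edgeR also called Pim3 in both comparisons, and with 0.4 it called 0 of the 8 genes higher in either. No paired analysis was possible because each condition has 1 library. Depth limits Mycn and Mycl, which could not be compared.

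Among all genes, OSM against vehicle gave 581 higher and 844 lower. These became 382 and 502 with at least 50 counts, 1357 and 1850 beyond 1.5-fold, 1565 and 2034 by point estimate, 43 and 11 at a BCV of 0.4, and 5186 and 5137 beyond no change (a rule added after the data were seen). IL-6 against vehicle gave 274 and 269, which became 31 and 25 with at least 50 counts, 457 and 445 beyond 1.5-fold, 1033 and 1025 by point estimate, 112 and 125 at a BCV of 0.2, 1 and 0 at a BCV of 0.4, and 3028 and 2953 beyond no change. OSM against IL-6 gave 659 and 843, which became 386 and 479, 1365 and 1854, 1557 and 1981, 57 and 20 (BCV of 0.4), and 5160 and 5156 under the same rules as in the first comparison. Beyond no change, the genes of the set numbered 3 higher and 2 lower with OSM against vehicle, 3 and 1 with IL-6 against vehicle, and 4 and 3 with OSM against IL-6. Without division by length, Pim3 made up 67.1%, 65.0% and 88.9% of the Pim counts with vehicle, IL-6 and OSM and Pim1 22.8%, 24.7% and 7.51%, and Myc had 0.868, 1.03 and 1.42 times the counts of the summed repressors.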
